A study of Mus musculus with 6 samples.

Results

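The genes described here are 42 enzymes that write or erase methyl groups on histone lysines, 26 methyltransferases and 16 demethylases. They were chosen by name, and each was found once among the 31053 genes in the feature lists of nuclei from the mouse hippocampus (tissue label hippocampus, DG). RNA of single nuclei was counted in 6 libraries, each from 5 pooled male C57BL/6J mice aged 12 weeks. Mice of the 2 HDACi-CFC libraries received 30 mg/kg CI-994, an inhibitor of class I histone deacetylases, 1 h before contextual fear conditioning (CFC) with 2 foot shocks of 0.2 mA. Mice of the 2 Veh-CFC libraries had the same conditioning after the vehicle. The single HDACi-Context and Veh-Context libraries came from mice that saw the chamber without shock after the drug or the vehicle. All mice were killed 1 h after the exposure, so every group had both an injection and an exposure. For 1 library the labels conflict: vehicle by title and treatment, inhibitor by description. It is called the library labelled Veh-Context. A library is the replicate, and with mice pooled inside it the p-values measure the spread between libraries, not between mice.

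Methyltransferases of the SET family, and Dot1l outside it, add methyl groups to lysines of histones H3 and H4, and the LSD and JmjC demethylases remove them. Methylation of H3K4 marks promoters and enhancers, that of H3K36 and H3K79 marks transcribed gene bodies, and that of H3K9, H3K27 and H4K20 is found in silenced chromatin. In neurons several of these enzymes, among them Kmt2a, Ehmt1, Ehmt2 and Kdm5b, have been studied for their part in memory and in neurodevelopmental disorders.

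After filtering, 26839 of 30323 barcodes were kept, between 3573 and 5334 nuclei per library, from totals of 24508202 to 45570814 UMIs. Nuclei were assigned to a class by a gate on marker genes, and 8 classes with at least 100 nuclei in every library were compared. These held 5240 DG granule, 2751 CA1, 1599 CA3, 1199 interneuron, 1170 astrocyte, 3258 oligodendrocyte, 764 OPC (oligodendrocyte precursor) and 1372 microglia nuclei. UMIs were summed per library and class, and levels are given as CPM (UMI counts scaled to the class total of a library) after TMM scaling within the comparison. Sums of marker genes, here and below, are CPM scaled to the class total alone, without TMM. The median depth per nucleus was 5368 and 6348 UMIs in HDACi-CFC, 5955 and 6808 in Veh-CFC, 6718 in HDACi-Context and 6382 in the library labelled Veh-Context. In DG granule nuclei the 7 markers of that class, none of them at 0, summed to 5460 and 5678 CPM in HDACi-CFC, against 4075 and 4124 in Veh-CFC. The 9 astrocyte markers, none at 0, summed there to 1382 and 1446 CPM in HDACi-CFC, against 897 and 833 in Veh-CFC, and their part in the results was not tested. The 10 microglia markers ran the other way there, with 110 and 127 CPM in HDACi-CFC, against 147 and 135 in Veh-CFC.

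RefSeq promoter windows (250 bases before to 50 after a transcript start, build GRCm38.p6) were at hand for 30 of the 42 genes, 42 windows in all. Their median number of CG dinucleotides was 28, against 7 over all 32851 windows of the table. The 14 windows of 11 genes called higher with the inhibitor in DG granule nuclei had a median of 28 and the 13 windows of 10 genes called lower a median of 29. Windows are printed for the 2 genes called higher and the 2 called lower in most classes, among the 18 with a single RefSeq start within 100 bases of the GENCODE start. Dot1l adds methyl groups at H3K79 and Kdm5b removes them from H3K4, and both were higher with the inhibitor. Setdb1, an H3K9 methyltransferase, and Phf8, which removes methyl groups from H3K9 and H4K20, were lower with it. Each is written 5′ to 3′ on the gene's strand, with capitals at the matches described after it.
Dot1l, chr10:80754953-80755252, + strand: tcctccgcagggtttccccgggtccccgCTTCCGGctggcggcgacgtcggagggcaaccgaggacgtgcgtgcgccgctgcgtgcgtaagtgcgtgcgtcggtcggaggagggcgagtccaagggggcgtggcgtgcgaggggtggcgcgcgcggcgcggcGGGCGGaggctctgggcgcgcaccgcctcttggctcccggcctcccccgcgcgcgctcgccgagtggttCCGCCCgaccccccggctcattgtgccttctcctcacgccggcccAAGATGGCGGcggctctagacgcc
Kdm5b, chr1:134559928-134560227, + strand: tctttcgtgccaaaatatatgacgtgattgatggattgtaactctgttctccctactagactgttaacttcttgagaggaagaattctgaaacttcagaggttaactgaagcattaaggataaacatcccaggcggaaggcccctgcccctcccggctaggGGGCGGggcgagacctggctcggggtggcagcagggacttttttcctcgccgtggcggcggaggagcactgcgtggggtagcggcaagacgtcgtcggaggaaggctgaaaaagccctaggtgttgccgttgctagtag
Setdb1, chr3:95357153-95357452, - strand: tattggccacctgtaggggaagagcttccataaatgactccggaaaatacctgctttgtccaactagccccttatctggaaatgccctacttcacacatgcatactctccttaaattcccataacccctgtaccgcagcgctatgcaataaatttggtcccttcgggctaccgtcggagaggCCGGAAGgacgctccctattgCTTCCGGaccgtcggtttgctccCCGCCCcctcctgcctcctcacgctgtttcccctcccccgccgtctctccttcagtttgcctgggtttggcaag
Phf8, chrX:151520422-151520721, + strand: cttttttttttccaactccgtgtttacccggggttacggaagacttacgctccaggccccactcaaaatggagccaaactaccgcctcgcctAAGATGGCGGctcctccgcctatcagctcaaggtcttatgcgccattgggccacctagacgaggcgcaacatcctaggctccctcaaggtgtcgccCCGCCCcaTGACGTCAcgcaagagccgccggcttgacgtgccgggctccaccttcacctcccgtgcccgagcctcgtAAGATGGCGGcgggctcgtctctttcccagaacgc
Letters were searched on both strands, and the YY1 motif was added after the windows were read. The GC box GGGCGG was in 29 of the 42 windows, against 35.7% of all windows, and in each of the 4 printed. The ETS motif CCGGAAG was in 4 windows, Dot1l and Setdb1 among them, against 8.86% of all windows. The CRE palindrome TGACGTCA was in 2 windows, one that of Phf8, against 1.79%. The YY1 motif, the longest of the capital runs in Dot1l and Phf8, was in 4 windows, against 0.85%, and Phf8 has it at 2 places. The E-box CACGTG was in 3 windows, against 7.15%, while TATAAA (13.6% of all windows) and the NRF1 motif (0.97%) were in none of the 42. No capitals of 1 motif overlap those of another in the printed windows.

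The level of the 42 genes in each class was first compared within the 3 vehicle libraries, the 2 Veh-CFC and the one labelled Veh-Context. Each class was set against the mean of the other classes with the library as a block, over 14569 genes. DG granule nuclei had 13 of the 42 genes higher and 5 lower, where 30.5% and 23.1% of all genes were higher and lower. CA1 had 11 higher and 12 lower (29.5% and 24.5% of all genes), and CA3 12 higher and 15 lower (29.7% and 24.9%). Interneurons had 1 higher, the H3K4 methyltransferase Kmt2a, and 18 lower (25.1% and 20.8% of all genes). Astrocytes had 9 higher and 8 lower (22.6% and 19.7%), oligodendrocytes 15 and 8 (26.7% and 26.3%), OPCs 4 and 6 (16% and 11.2%) and microglia 17 and 8 (25.8% and 26.6%). With library-size scaling, in place of TMM, these counts were 7 higher and 10 lower in DG granule, 8 and 22 in CA1, 8 and 21 in CA3, 3 and 17 in interneurons, 11 and 7 in astrocytes, 14 and 10 in oligodendrocytes, 7 and 4 in OPCs and 24 and 5 in microglia. Leaving out 1 library moved some of these counts by over 1.5 times. Without Veh-CFC library 1 they were 2 lower in DG granule, 7 lower in CA1, 5 higher in astrocytes, 5 lower in oligodendrocytes and 3 lower in OPCs. Without Veh-CFC library 2 they were 2 lower in DG granule, 3 higher in astrocytes, 2 higher in OPCs and 11 higher in microglia, and without the library labelled Veh-Context 2 were higher in interneurons.

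**Figure D1:**
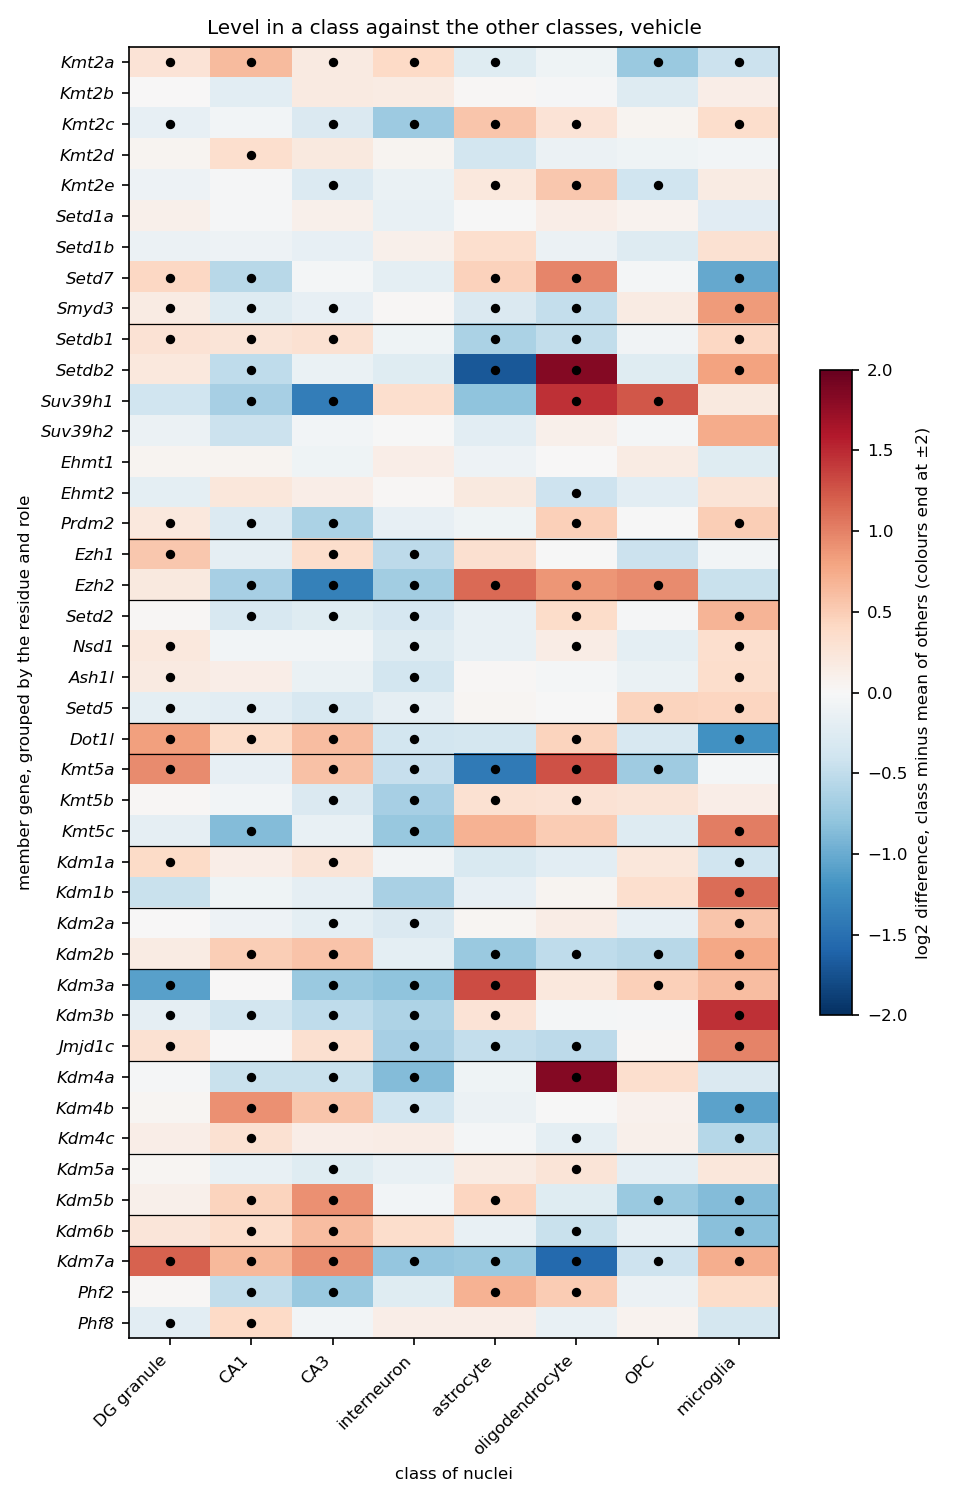
Level of the 42 genes (rows, grouped by residue and role) in each of the 8 classes (columns) in vehicle libraries, as the log2 difference from the mean of the other classes, with a dot where the edgeR adjusted p was below 0.05. Kdm4a and Setdb2 stand out in oligodendrocytes, at 1.84 and 1.83, and Kdm3b in microglia, at 1.46.

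Demethylases of H3K9 differed widely between the classes. Kdm3b reached 303, 248 and 192 CPM in the microglia of Veh-CFC libraries 1 and 2 and the library labelled Veh-Context, with a mean of 248 ± 55.8 (SD, n = 3), and the next highest class mean was 120.4 in astrocytes. Its log2 difference in microglia was 1.46 (SE 0.09, edgeR quasi-likelihood test, Benjamini-Hochberg adjusted p = 2.59e-16). Kdm3a, of the same family, averaged 129 CPM in astrocytes and 30.6 ± 1.37 in DG granule nuclei, where its log2 difference was -1.08 (edgeR adjusted p = 6.0e-13). The related Jmjd1c averaged 718 CPM in microglia, with a log2 difference of 0.99, and between 264 and 481 in the other classes. Kdm4a, which acts on H3K9 and H3K36, had 69.0, 67.2 and 83.2 CPM in oligodendrocytes, against class means of 14.3 to 29.7 elsewhere, a log2 difference of 1.84 (SE 0.12, edgeR adjusted p = 1.08e-15). Its relative Kdm4b was highest in CA1, at 107, 122 and 74.6 CPM (log2 difference 0.91, edgeR adjusted p = 7.03e-12), and the library labelled Veh-Context lay below both Veh-CFC libraries.

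Among H3K9 and H3K27 methyltransferases the differences were largest in glia and CA3. Setdb2 had 24.9, 32.6 and 28.0 CPM in oligodendrocytes, against 3.29 ± 1.62 (SD, n = 3) in astrocytes, where it was lowest. Its log2 differences in those classes were 1.83 and -1.70 (edgeR adjusted p = 1.61e-10 and 0.0022). Suv39h1, which makes heterochromatic H3K9 methylation, averaged 15.6 CPM in oligodendrocytes and 2.78 ± 0.97 in CA3. Its call in OPCs (log2 difference 1.24) was lost without the library labelled Veh-Context, at 0.82 with an edgeR adjusted p of 0.347. Ezh2, the catalytic subunit of PRC2, averaged 69.0, 61.5 and 59.1 CPM in astrocytes, OPCs and oligodendrocytes and 15.8 ± 4.57 in CA3, where its log2 difference was -1.35 (edgeR adjusted p = 6.48e-10). Its call in OPCs, with 50.9, 85.7 and 47.8 CPM, was lost without Veh-CFC library 2 (log2 difference 0.64, edgeR adjusted p = 0.0901). Ezh1, its paralogue, was higher in DG granule and CA3 nuclei, at log2 differences of 0.53 and 0.35.

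Other members also differed between neuronal and glial classes. Kdm7a, a JmjC demethylase with a PHD finger, had 183, 187 and 188 CPM in DG granule nuclei, a log2 difference of 1.18 (SE 0.07, edgeR adjusted p = 6.19e-17), and averaged 35.3 in oligodendrocytes. Dot1l was highest in DG granule and CA3 nuclei, with means of 102 and 90.1, and lowest in microglia, with 25.1, 28.8 and 34.5 CPM (log2 difference -1.21, edgeR adjusted p = 5.2e-06). The 3 microglia values lay below every other class mean of Dot1l. Kmt5a, the H4K20 monomethyltransferase, averaged 93.9 CPM in oligodendrocytes and 17.8 ± 7.62 in astrocytes, with log2 differences of 1.27 and -1.42. Setd7, an H3K4 methyltransferase, was higher in oligodendrocytes (mean 183.5) and lower in microglia (mean 54.4). Kmt5c, another H4K20 methyltransferase, had 7.94, 7.78 and 8.75 CPM in CA1, a log2 difference of -0.87. The H3K4 methyltransferases Kmt2b, Setd1a and Setd1b and the H3K9 methyltransferases Ehmt1 and Suv39h2 were called in no class at the adjusted threshold of 0.05.

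The inhibitor was then compared with the vehicle after conditioning, HDACi-CFC against Veh-CFC, within each class. In DG granule nuclei all 42 genes passed the filter on low counts. With an edgeR adjusted p below 0.05, 15 of them rose and 14 fell, where 22.7% and 24.8% of the 14316 genes tested rose and fell. Both directions were mixed within most roles. Of 9 genes listed as H3K4 methyltransferases 4 rose, among them Kmt2e, which reads H3K4 methylation, and 1 fell. Of 7 H3K9 methyltransferases 1 rose and 5 fell, and of 4 H3K36 methyltransferases 3 rose and none fell. The DESeq2 Wald test did not call the falls of Suv39h1, Suv39h2 and Ehmt2 (adjusted p = 0.0825, 0.277 and 0.121). Nor did it call the rises of Kmt2d and Setd2 (0.1765 and 0.1365). The median log2 fold change was -0.07 over the 42 genes and 0.00139 over all genes tested.

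Members that rose in DG granule nuclei were led by Setd5 and Jmjd1c. Setd5, a SET protein linked to H3K36 methylation whose own activity is debated, had 285 and 306 CPM in HDACi-CFC, against 161 and 138 in Veh-CFC, a log2 fold change of 0.99 (SE 0.09, edgeR quasi-likelihood test, adjusted p = 1.58e-08). Jmjd1c, a JmjC protein of the H3K9 demethylase family, had 809.8 and 808 CPM in HDACi-CFC, against 401 and 412 in Veh-CFC (log2 fold change 0.99, SE 0.06, adjusted p = 4.26e-10). In both genes the drug libraries lay far above the vehicle libraries. Dot1l had 166 and 143 CPM in HDACi-CFC, against 87.4 and 78.5 in Veh-CFC (log2 fold change 0.89, SE 0.10, adjusted p = 3.44e-07). Kdm5b had 160.2 and 170.2 CPM in HDACi-CFC, against 92.0 and 90.8 in Veh-CFC (log2 fold change 0.86, SE 0.09, adjusted p = 1.23e-07). Kdm6b, which removes the PRC2 mark H3K27 methylation, had 81.4 and 81.8 CPM in HDACi-CFC, against 40.6 and 49.4 in Veh-CFC (log2 fold change 0.85, adjusted p = 4.04e-06). Kmt2e, a SET protein that reads H3K4 methylation, had 234 and 261 CPM in HDACi-CFC, against 152 and 140.4 in Veh-CFC (log2 fold change 0.77, adjusted p = 3.74e-07). Groups that did not overlap were a condition for giving values per library of called members, here and in the other classes, and are no finding. In DG granule nuclei 36 of the 42 members, called or not, had such groups. The share over all genes was not computed. The other 9 that rose were Prdm2 (0.67), Nsd1 (0.56), Kmt5a (0.52), Kdm1a (0.51), Kdm7a (0.46), Setd7 (0.43), Kmt2d (0.36), Kmt2a (0.33) and Setd2 (0.27), given as log2 fold changes. Nsd1 and Setd2 make H3K36 methylation, Kmt2a and Kmt2d are H3K4 methyltransferases of the COMPASS type, and Kdm1a is the H3K4 demethylase LSD1.

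**Figure D2:**
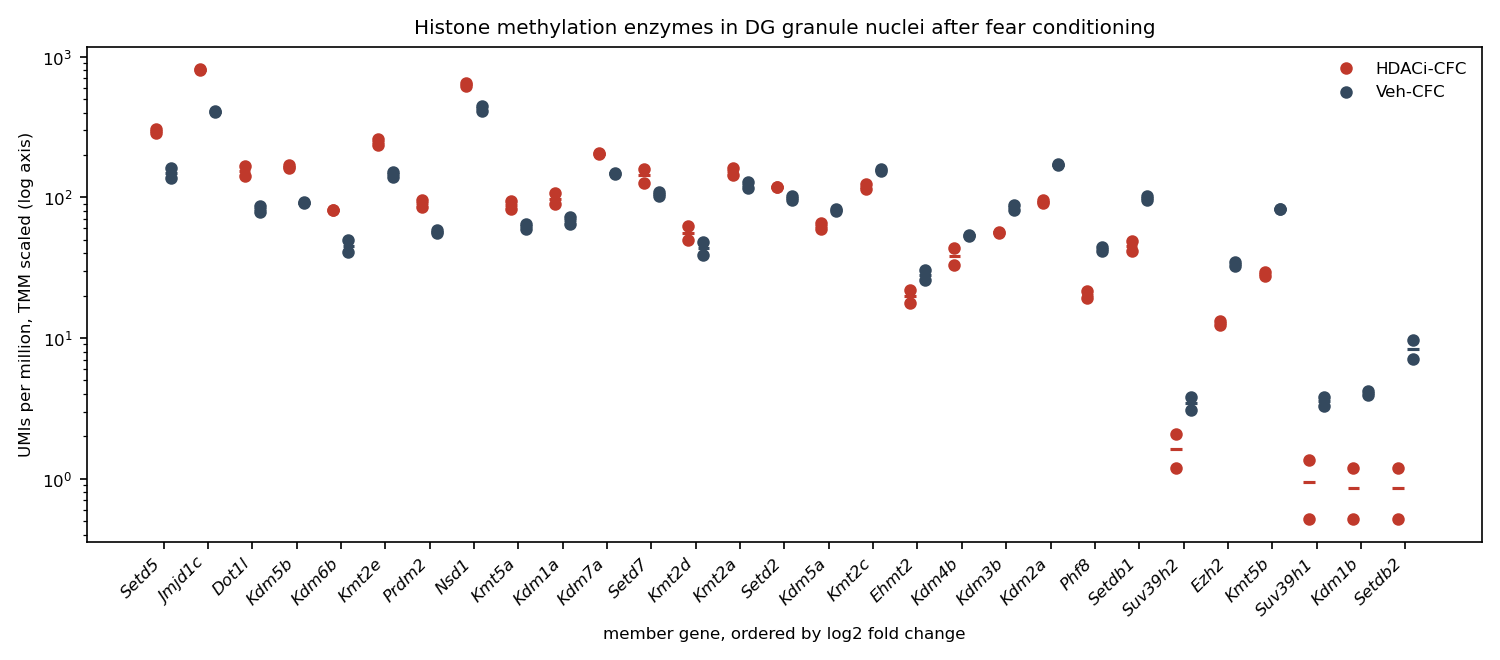
CPM (log axis) of the 29 genes that rose or fell in DG granule nuclei, ordered by log2 fold change, with a point for each library and a bar at the group mean, HDACi-CFC in red left of Veh-CFC in dark blue. Jmjd1c lies at 809.8 and 808 CPM in HDACi-CFC, against 401 and 412 in Veh-CFC, and Kmt5b at 27.4 and 29.3 in HDACi-CFC, against 82.8 and 82.1 in Veh-CFC.

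The steepest falls in DG granule nuclei were in genes with few UMIs. Setdb2 had 0.517 and 1.2 CPM in HDACi-CFC, from 2 and 7 UMIs, against 7.1 and 9.7 in Veh-CFC, from 39 and 77 UMIs (log2 fold change -3.18, SE 0.41, edgeR adjusted p = 2.82e-06). Kdm1b, the H3K4 demethylase LSD2, had 2 and 7 UMIs in HDACi-CFC, against 23 and 31 in Veh-CFC (log2 fold change -2.10, SE 0.47, adjusted p = 0.000912). Suv39h1 had 2 and 8 UMIs in HDACi-CFC, against 21 and 26 in Veh-CFC (log2 fold change -1.76, adjusted p = 0.00453). Its relative Suv39h2 had 8 and 7 UMIs in HDACi-CFC, against 17 and 30 in Veh-CFC (log2 fold change -1.16, adjusted p = 0.0296). As the choice of genes required, the groups did not overlap in CPM in any of the 4. Better counted was Kmt5b, an H4K20 methyltransferase that makes the di- and trimethyl forms, with 27.4 and 29.3 CPM in HDACi-CFC, against 82.8 and 82.1 in Veh-CFC (log2 fold change -1.54, SE 0.11, adjusted p = 2.11e-09). Ezh2 had 13.2 and 12.3 CPM in HDACi-CFC, against 34.4 and 32.2 in Veh-CFC (log2 fold change -1.39, SE 0.16, adjusted p = 6.69e-07). For both genes the drug libraries lay well below the vehicle libraries. The other falls were those of Setdb1 (-1.14), Phf8 (-1.06), Kdm2a (-0.87), Kdm3b (-0.59), Kdm4b (-0.51), Ehmt2 (-0.47), Kmt2c (-0.39) and Kdm5a (-0.37). The 13 genes that did not pass, Setd1a, Phf2, Kmt2b, Setd1b, Ehmt1, Kdm4a, Kdm4c, Ash1l, Ezh1, Smyd3, Kdm3a, Kdm2b and Kmt5c, had log2 fold changes from -0.56 to 0.23.

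The scaling decided how many rose. With library-size scaling, which set the median log2 fold change of all genes in DG granule nuclei 0.373 lower, 8 members rose (Setd5, Jmjd1c, Dot1l, Kdm5b, Kdm6b, Kmt2e, Prdm2 and Nsd1) and 24 fell. Of all 14316 genes tested, 1389 rose and 6411 fell with that scaling. Per nucleus, which set that median 0.521 lower, 3 members rose (Setd5, Jmjd1c and Dot1l) and 24 fell, where 674 of all genes rose and 6926 fell. All 14 falls kept their call under both scalings. The values of Kdm1a, Kdm7a, Kmt2a, Kmt2d, Kmt5a, Setd2 and Setd7 turned to between -0.26 and -0.0039 per nucleus, and those of Kmt2a, Kmt2d and Setd2 to between -0.11 and -0.01 with library-size scaling. Without Veh-CFC library 1, 10 rose and 8 fell, and without Veh-CFC library 2, 10 rose and 9 fell. The calls lost in one or more of the 4 fits that left out a library were those of Suv39h1, Suv39h2, Kdm4b, Ehmt2, Kmt2c and Kdm5a among the falls and of Kdm1a, Kmt5a, Setd7, Kmt2a, Kmt2d and Setd2 among the rises. Their adjusted p there lay between 0.0674 for Kmt5a and 0.384 for Kmt2d. Genes on the opposite strand overlap some members. The sources used here do not say whether strand was used in counting, so it is not known here whether reads of a pair were told apart. Over Jmjd1c lies Reep3, with a log2 fold change of 1.34, over Setdb1 Cers2 (-0.80), over Kdm1b Dek and Tpmt (-1.68 and -1.76), over Suv39h2 Dclre1c (-1.01), over Kdm1a Luzp1 (0.78) and over Kmt2e Srpk2, which did not pass (-0.16). Over Kdm5a lies Ccdc77 (-0.54, adjusted p = 0.00622), and over Suv39h1 Gm14820, which rose (0.46, adjusted p = 0.0319) where Suv39h1 fell. Over Kdm2b, which was not called, lie Rnf34 (-0.39) and A930024E05Rik (1.30). Across the 42 genes the rank correlation of log2 fold change with gene length was 0.20, against 0.09 over 14302 genes.

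Several of the changes were called in most classes. Jmjd1c rose in all 8, with log2 fold changes from 0.54 in oligodendrocytes to 1.70 in microglia. Setd5 rose in 7 classes, from 0.66 in CA3 to 1.37 in oligodendrocytes, and stood at 0.32 in microglia, where it did not pass. Kmt2e rose in the same 7 classes, from 0.62 to 1.07. Kmt5b fell in 7 classes, from -1.04 in oligodendrocytes to -1.59 in interneurons, and stood at -0.61 in astrocytes. Setdb1 fell in 7 classes, from -0.70 to -1.14, and stood at -0.40 in microglia. Phf8 fell in 7 classes, from -0.83 to -1.88, and stood at -0.72 in OPCs. Over the 307 pairs of gene and class tested, 62 rose and 67 fell. With library-size scaling 37 of the 62 and 67 of the 67 were called the same way, and per nucleus 9 and 65 were. By gene, 14 rose in at least 1 class and fell in none, and 18 fell in at least 1 and rose in none. Another 5 were called both ways and 5 in no class. Such counts across classes were not computed over all genes. Whether calls in most classes set these enzymes apart from other genes is therefore not known here. Those called both ways were Kdm2b, Kdm4a, Kdm4b, Kdm7a and Kmt2c, and those called nowhere were Kmt2b, Kmt5c, Phf2, Setd1a and Smyd3. The rises of Kmt2c in CA3, of Kdm4a and Kdm4b in oligodendrocytes and of Kdm2b in microglia were not called with library-size scaling (edgeR adjusted p = 0.67, 0.658, 0.411 and 0.0671), while the rise of Kdm7a in microglia and its fall in OPCs were (0.0101 and 0.00293). Leaving out 1 library ended the calls of Setdb1 in astrocytes (adjusted p = 0.194 without Veh-CFC library 1 and 0.0973 without Veh-CFC library 2) and of Kmt5b in OPCs (0.0567 without HDACi-CFC library 2). DESeq2 did not call Phf8 in astrocytes and microglia (adjusted p = 0.0753 and 0.142), Setdb1 in astrocytes (0.261) or Kmt5b in OPCs (0.103).

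**Figure D3:**
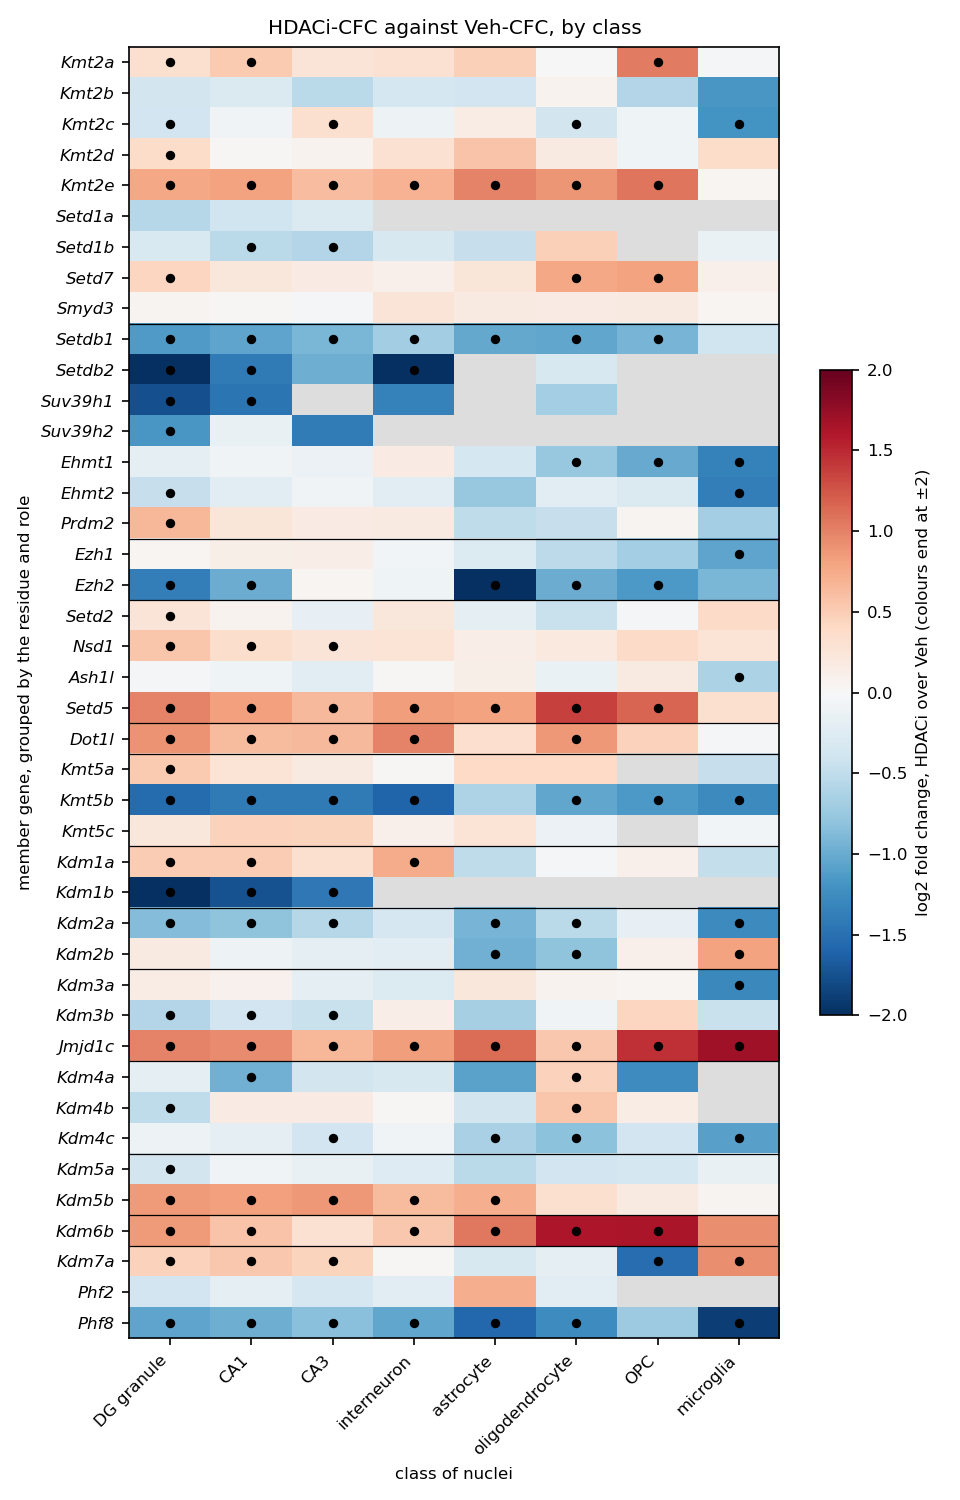
Log2 fold change of HDACi-CFC over Veh-CFC for the 42 genes (rows, grouped by residue and role) in the 8 classes (columns), with a dot where the edgeR adjusted p was below 0.05 and grey where the gene did not pass the filter on low counts. Jmjd1c is red in every class, Setd5 and Kmt2e carry a dot in all but microglia, and Kmt5b, Setdb1 and Phf8 are blue in every class.

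Fewer members were called in the other classes. In CA1 10 of 42 rose and 11 fell (17.9% and 18.2% of all genes tested), and in CA3 8 of 41 rose and 8 fell (15% and 13.5%). In interneurons 7 of 39 rose and 4 fell (14.5% and 10.8%), and in astrocytes 5 of 37 rose and 6 fell (11.8% and 9.18%). In oligodendrocytes 8 of 39 rose and 9 fell (20.2% and 18%), in OPCs 6 of 33 rose and 5 fell (13.4% and 8.75%), and in microglia 3 of 34 rose and 10 fell (18% and 14.7%). With library-size scaling the counts of rises and falls were 5 and 22 in CA1, 5 and 17 in CA3, 4 and 11 in interneurons, 3 and 10 in astrocytes, 5 and 15 in oligodendrocytes and 10 falls in OPCs. Of all genes tested, 988 and 5494 of 13521 rose and fell with it in CA1, and 844 and 3642 of 12495 in CA3. In interneurons it was 684 and 3242 of 11436, and in astrocytes 550 and 1351 of 8413. In oligodendrocytes it was 975 and 3595 of 10116, and in OPCs 1677 of 7612 fell. Leaving out a library moved the falls in CA3 to 5 without HDACi-CFC library 2 or Veh-CFC library 1 and to 4 without Veh-CFC library 2. It moved those in interneurons to 2 without HDACi-CFC library 2, and those in OPCs to 2 and 3 without HDACi-CFC libraries 1 and 2. In astrocytes 2 rose and 3 fell without Veh-CFC library 1, and 2 rose and 2 fell without Veh-CFC library 2.

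In the other neurons Kmt5b, Jmjd1c, Kdm5b and Dot1l were among the members with the largest log2 fold changes. In CA1, Kmt5b had 31.4 and 29.7 CPM in HDACi-CFC, against 78.7 and 82.8 in Veh-CFC (log2 fold change -1.41, SE 0.13, edgeR adjusted p = 2.86e-08). Jmjd1c had 648 and 663 CPM there in HDACi-CFC, against 331 and 350.5 in Veh-CFC (log2 fold change 0.94, adjusted p = 1.12e-08). In CA3 Kdm5b had 289 and 301 CPM in HDACi-CFC, against 166 and 159 in Veh-CFC (log2 fold change 0.86, adjusted p = 9.32e-07). As the choice of genes required, the drug libraries stood apart for both. In interneurons Dot1l had 93.2 and 102 CPM in HDACi-CFC, against 50.4 and 48.4 in Veh-CFC (log2 fold change 0.99, adjusted p = 0.000238). Setdb2 had 1 and 2 UMIs there in HDACi-CFC, against 12 and 17 in Veh-CFC (adjusted p = 0.00509), and it lost its call without Veh-CFC library 2 (adjusted p = 0.0697) or HDACi-CFC library 2 (0.101). In CA3 the H3K4 methyltransferase Kmt2c rose by 0.32 (adjusted p = 0.0286), while it fell in DG granule nuclei, oligodendrocytes and microglia.

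In oligodendrocytes and OPCs the H3K27 demethylase Kdm6b rose and the methyltransferase Ezh2 fell, while its paralogue Ezh1 did not pass (log2 fold change -0.53 and -0.68). Kdm6b had 94.2 and 91.2 CPM in the oligodendrocytes of HDACi-CFC, against 27.1 and 32.5 in Veh-CFC (log2 fold change 1.61, SE 0.19, edgeR adjusted p = 1.13e-05). In OPCs it had 121.5 and 119.9 CPM in HDACi-CFC, against 46.0 and 32.4 in Veh-CFC (log2 fold change 1.63, adjusted p = 0.000915). The fold changes were 3.06 and 3.1, and the drug libraries lay above the vehicle libraries in both classes. In astrocytes Kdm6b stood at 1.05 (adjusted p = 0.0335), a call lost with library-size scaling (adjusted p = 0.0753), in DESeq2 (0.174) and without Veh-CFC library 1 (0.0505) or 2 (0.212). Ezh2 fell in astrocytes to 8 and 14 UMIs in HDACi-CFC, against 33 and 45 in Veh-CFC (4.01-fold lower, adjusted p = 0.0031). It also fell in oligodendrocytes (-0.99) and in OPCs (-1.15), where the call was lost without HDACi-CFC library 1 (adjusted p = 0.158) or Veh-CFC library 2 (0.331). DESeq2 did not call the fall of Ezh2 in OPCs (adjusted p = 0.292). In oligodendrocytes Setd5 had 459 and 468 CPM in HDACi-CFC, against 175 and 184 in Veh-CFC (log2 fold change 1.37, edgeR adjusted p = 2.83e-07), the largest rise of that gene. The H3K9 and H3K36 demethylases Kdm4a and Kdm4b also rose there, by 0.46 and 0.55, and Kdm4c fell (-0.83). In OPCs Kdm7a fell to 5 and 12 UMIs in HDACi-CFC, against 36 and 32 in Veh-CFC (log2 fold change -1.53, adjusted p = 0.0115), a call lost in DESeq2 (-1.56, adjusted p = 0.138), while the same gene rose in DG granule, CA1, CA3 and microglia nuclei.

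In microglia most of the members called were lower. Jmjd1c reached 2856 and 2938 CPM in HDACi-CFC, against 833.5 and 944 in Veh-CFC (log2 fold change 1.70, SE 0.11, edgeR adjusted p = 2.55e-09), and the groups lay 3.25-fold apart. Kdm7a rose by 0.93 and Kdm2b, an H3K36 demethylase of a Polycomb complex, by 0.80, a call that Kdm2b lost without HDACi-CFC library 1 or Veh-CFC library 2 (adjusted p = 0.08 and 0.0806). The H3K9 methyltransferases Ehmt1 and Ehmt2, which work as a pair, both fell. Ehmt1 had 87.5 and 75.3 CPM in HDACi-CFC, against 187.5 and 221 in Veh-CFC (log2 fold change -1.36, adjusted p = 0.000294). Ehmt2 had 6 and 7 UMIs in HDACi-CFC, against 18 and 29 in Veh-CFC (log2 fold change -1.38, adjusted p = 0.0224), and lost its call without either Veh-CFC library or HDACi-CFC library 2 (adjusted p = 0.0702 without Veh-CFC library 1 to 0.177 without HDACi-CFC library 2). Also lower were Phf8 (-1.88), Kdm3a (-1.29), Kmt5b (-1.28), Kdm2a (-1.28), Kmt2c (-1.20), Kdm4c (-1.09), Ezh1 (-1.06) and the H3K36 methyltransferase Ash1l (-0.64). DESeq2 did not call Kdm2b, Ehmt2 or Phf8 in microglia (adjusted p = 0.148, 0.366 and 0.142). In these nuclei the 7 DG granule markers, 0 or 1 of them at 0, summed to 1516 and 1653 CPM in HDACi-CFC, against 842 and 763 in Veh-CFC, and the 10 microglia markers to 20411 and 20124 in HDACi-CFC, against 19295 and 19057 in Veh-CFC. These sums are without TMM scaling, and the part of the DG granule markers in the microglia values was not tested.

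Whether the drug response of a member differed between DG granule nuclei and another class was tested in joint fits with the library as a block. Against CA1, 7 of 42 genes differed, 6 of them higher in DG granule (7.99% and 5.27% of all genes were higher and lower), and against CA3 13 differed, 9 of them higher (8.36% and 5.14%). Against interneurons 2 were higher and 3 lower (6.68% and 5.89%), and against astrocytes 3 were higher and none lower (3.49% and 2.26%). Against oligodendrocytes 4 were higher and 9 lower (4.49% and 11.6%), against OPCs 2 were higher and 3 lower (3.37% and 5.09%), and against microglia 4 were higher and 3 lower (3.61% and 6.91%). With library-size scaling the higher and lower counts were 1 and 2 against CA1, 2 and 5 against CA3 and 0 and 5 against interneurons. They were 1 and 1 against astrocytes, 7 and 6 against oligodendrocytes, 2 and 3 against OPCs and 5 and 3 against microglia. Of all genes, in either direction, 12.4%, 12.5%, 12.8% and 5.34% differed with it against CA1, CA3, interneurons and astrocytes. Against oligodendrocytes, OPCs and microglia it was 15.5%, 8.34% and 9.89%. These shares were not split by direction. The direction of the member counts changed with scaling against CA1, CA3 and oligodendrocytes and is not read here. The log2 fold change of Prdm2, an H3K9 methyltransferase, was higher in DG granule nuclei than in 6 of the 7 other classes. The difference ran from 0.50 (CA1) to 1.27 (astrocytes), and OPCs were the exception. Prdm2 stood at 0.67 in DG granule and, not called, at -0.51 in astrocytes, -0.46 in oligodendrocytes and -0.68 in microglia. That of Nsd1 was higher in DG granule than in CA1, CA3 and interneurons, by 0.27, 0.38 and 0.38. Jmjd1c rose more in DG granule than in CA3 nuclei, by 0.40 (SE 0.07, edgeR adjusted p = 7.72e-05), and less than in microglia, by -0.84 (SE 0.21, adjusted p = 0.00184). Kdm6b rose more than in CA3 (0.62) and less than in oligodendrocytes (-0.92). Ezh2 fell in DG granule nuclei but stood at 0.04 in CA3 and -0.09 in interneurons (differences -1.35 and -1.21). The fall of Setdb2 in DG granule was steeper than in CA3 (-2.11) and oligodendrocytes (-2.95). With library-size scaling the differences of Nsd1 from all 3 neuronal classes (adjusted p = 0.111, 0.0992 and 0.228) and of Prdm2 from CA3 and interneurons (0.143 and 0.158) were not called, and the others named here were.

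The Context pair gave the same comparison without shock, with 1 library per group, so no test was made, and the 95% intervals cover counting error only. In its DG granule nuclei the 10 microglia markers, none at 0, summed to 234 CPM in HDACi-Context, against 385 in the library labelled Veh-Context, and the 9 astrocyte markers, none at 0, to 1211 in HDACi-Context, against 825 in the library labelled Veh-Context. The microglia markers summed to 170.5 CPM in CA1, 181 in CA3 and 201 in interneurons of HDACi-Context, against 304, 281.5 and 384 in the library labelled Veh-Context, with 1 of the 10 at 0 in the interneurons of HDACi-Context. These sums are without TMM scaling. The part of these markers in the Context values was not tested. In DG granule nuclei all 42 genes had at least 50 UMIs over the pair, and 7 were more than 1.5-fold higher and 12 more than 1.5-fold lower in HDACi-Context (15.9% and 20.8% of 12707 genes). Jmjd1c had 671 CPM in HDACi-Context, against 337 in the library labelled Veh-Context, a log2 ratio of 0.99 (0.93 to 1.06). Setd5 stood at 271 CPM in HDACi-Context, against 148 in the library labelled Veh-Context (log2 ratio 0.87, 0.77 to 0.97). Dot1l stood at 136 in HDACi-Context, against 80.3 in the library labelled Veh-Context (0.76, 0.62 to 0.91). Kmt5b stood at 25.3 CPM in HDACi-Context, against 79.1 in the library labelled Veh-Context (log2 ratio -1.64, -1.88 to -1.41). Ezh2 had 10.5 CPM in HDACi-Context, against 28.3 in the library labelled Veh-Context (-1.43, -1.81 to -1.06). The 29 genes that rose or fell after conditioning all had the same sign here, 27 of them with an interval that left out 0, and of the other 6360 called genes 96.8% had the same sign. The 2 whose interval held 0 were Ehmt2 and Suv39h2. With library-size scaling, or per nucleus, 1 was more than 1.5-fold higher and 19 lower. The shared signs hold with TMM. With library-size scaling the signs after conditioning and in Context differed for Kmt2d (-0.014 and 0.23), Kdm7a (0.087 and -0.0081) and Setd7 (0.052 and -0.023).

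In the other classes the signs were also shared with TMM scaling. They were the same for 19 of 19 members with a call and 50 UMIs in CA1 (95.9% of other called genes), 16 of 16 in CA3 (95.7%), 10 of 10 in interneurons (94.3%) and 7 of 7 in astrocytes (93.8%). In oligodendrocytes it was 17 of 17 (91.2%), in OPCs 9 of 9 (96.1%) and in microglia 10 of 10 (94.8%). More than 1.5-fold higher and lower were 6 and 8 members in CA1 (12.6% and 16.8% of all genes), 2 and 10 in CA3 (11% and 14.3%), 2 and 5 in interneurons (11.3% and 15.2%) and 4 and 5 in astrocytes (16.4% and 19.4%). In oligodendrocytes it was 6 and 10 (19.2% and 23.3%), in OPCs 3 and 6 (21.9% and 22.6%) and in microglia 2 and 9 (19.3% and 22.9%). Jmjd1c in microglia had 2656 CPM in HDACi-Context, against 965 in the library labelled Veh-Context, a log2 ratio of 1.46 (1.28 to 1.65). Kdm7a had 542 CPM in microglia of HDACi-Context, against 171 in the library labelled Veh-Context (1.67, 1.23 to 2.12). In OPCs it had 54.4 in HDACi-Context, against 100.2 in the library labelled Veh-Context (-0.88, -1.66 to -0.14). Kdm6b in oligodendrocytes had 39.2 in HDACi-Context, against 20.4 in the library labelled Veh-Context (0.95, 0.27 to 1.65). The log2 ratios of Kmt2c in CA3, at 0.03 (-0.11 to 0.17), and of Kdm4a and Kdm4b in oligodendrocytes, at 0.01 (-0.40 to 0.41) and 0.24 (-0.24 to 0.72), had intervals that held 0, and with library-size scaling their ratios turned to -0.17, -0.35 and -0.11.

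**Figure D4:**
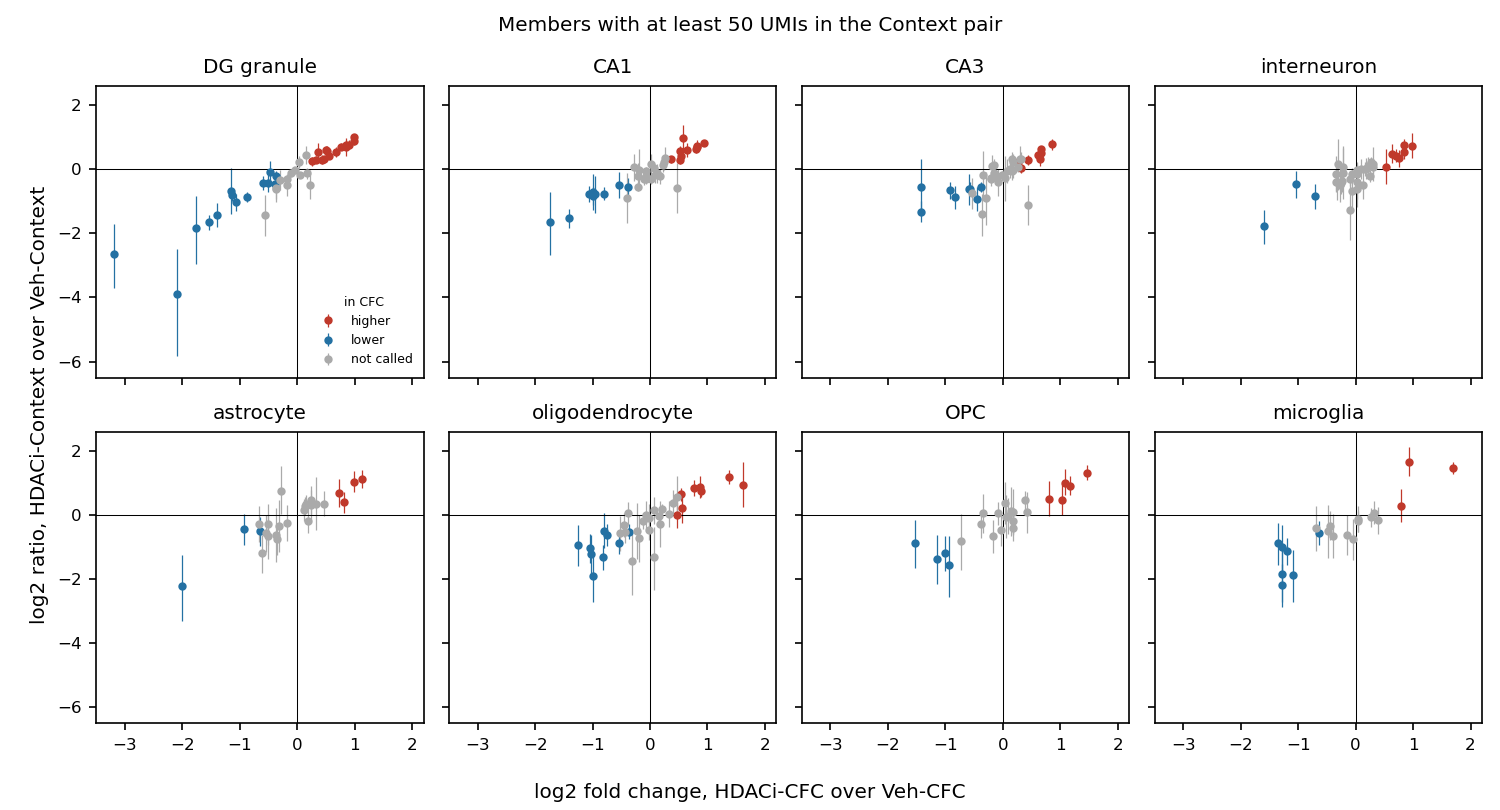
Log2 ratio of HDACi-Context over the library labelled Veh-Context, with 95% counting intervals, against the log2 fold change of HDACi-CFC over Veh-CFC, for members with at least 50 UMIs in the Context pair, in 8 panels, 1 per class. Red and blue points rose or fell after conditioning and grey points were not called there. In DG granule nuclei all 29 coloured points lie in the lower left or upper right of the panel.

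Whether the drug response differed between conditioning and Context was tested in all 6 libraries. Context has 1 library per group, so the spread behind this test came from the CFC libraries alone and the Context libraries are assumed to vary like them. No member was called in any class by edgeR's quasi-likelihood test, where few of all genes had a larger or smaller response after conditioning. Those shares were 0.183% and 0.232% in DG granule nuclei, 0.168% and 0.181% in CA1, 0.0333% and 0.0333% in CA3, 0.045% and 0.03% in interneurons, 0.00972% and 0% in astrocytes, 1.09% and 0.314% in oligodendrocytes, 0.0312% and 0% in OPCs and 0.0746% and 0.0213% in microglia. At an unadjusted p below 0.05 there were 0 members in DG granule and CA1, 2 in CA3 (Kdm4a and Kmt5c), 1 in interneurons (Ezh2), 1 in astrocytes (Ezh1), 1 in oligodendrocytes (Kmt2b), 2 in OPCs (Kdm2b and Kdm6b) and 1 in microglia (Kdm7a). The share of all genes at that level was 4.84% to 9.72%. The difference for Jmjd1c, Setd5, Kmt5b and Ezh2 in DG granule nuclei was -0.03, 0.10, 0.08 and 0.01 (log2, SE 0.11, 0.15, 0.20 and 0.27). This interaction was not run in DESeq2. On data simulated from these libraries the test found 39% of genes with a 2-fold and 75.8% with a 4-fold difference in DG granule nuclei. There 105 and 91 of 15769 genes had such differences, in both directions, and each gene had the spread typical of its level. These rates need not hold in the real data.

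Genes that work with the 42 enzymes were counted from lists in DG granule nuclei, where 22.7% of all genes rose and 24.8% fell. None of 11 COMPASS subunits rose and 4 fell, with Hcfc1 (-1.12), Dpy30 (-1.11) and Wdr5 (-0.75) lowest in log2 fold change. Of 8 PRC2 subunits 2 rose, the accessory Jarid2 (0.54) and the histone chaperone Rbbp7 (0.46), and 3 fell, the core subunits Suz12 (-1.05) and Eed (-1.04) and the accessory Aebp2 (-0.48). Suz12 had 42.5 ± 7.85 CPM in HDACi-CFC and 86.8 ± 0.246 in Veh-CFC (SD, n = 2 each). Of 10 HP1 and H3K9 silencing partners 2 rose, Phf21a (1.06), a reader in the LSD1 complex, and Atf7ip (0.73), a partner of Setdb1, and 5 fell, led by Wiz (-1.04). Of 21 genes listed as other histone lysine methyltransferases and demethylases 2 rose, Phf20l1 (0.82), a reader of methylated lysines and not an enzyme, and the H3K36 methyltransferase Nsd3 (0.34), and 5 fell, led by the H3K36 methyltransferase Nsd2 (-1.48). Nsd2 had 28.2 ± 2.44 CPM in HDACi-CFC and 78.3 ± 3.56 in Veh-CFC (SD, n = 2 each). In the S-adenosylmethionine cycle, which supplies the methyl donor, 3 of 11 rose, with Ahcyl1 (1.14) and Ahcyl2 (0.80) highest, and 2 fell, the methionine synthase Mtr (-1.34) and the spermidine synthase Srm (-0.93). With library-size scaling the rises were 0, 0, 2, 1 and 2 and the falls 10, 6, 7, 10 and 5 in these lists in the order given. Of all 14316 genes tested, 1389 rose and 6411 fell with that scaling.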

How the data were processed

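The deposited files hold raw UMI counts per gene and nucleus, one matrix per library. The authors made them with Cell Ranger 3.0.1 on mm10, per the submitters' processing notes, which also name Seurat 4.0.3, and the file headers name versions 3.0.1 and 3.0.2. Whether introns or strand were used in counting is not given in the sources used here.

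Barcodes under 500 genes or over 5% mitochondrial UMIs were dropped, and Scrublet in scanpy 1.11.5 (python 3.11.15, expected rate 0.06) removed 1.98% to 4.54% of nuclei per library as doublets. At most 11 barcodes were shared between libraries. Each nucleus was scored on 16 marker lists (mean z-score per list, clipped at 5) and gated to the highest list if the score was at least 0.5 and led by 0.3, which left 25.3% ungated. Names of classes rest on these markers. UMIs were summed per library and class and tested with edgeR 4.0.16 in R 4.3.3 (filterByExpr, TMM, quasi-likelihood F test). P-values were adjusted by Benjamini and Hochberg's method over all genes tested, with a threshold of 0.05. Ratios of the Context pair have 95% counting intervals, for genes with at least 50 UMIs. Levels after conditioning, in Context and at baseline were scaled within their own fits and are not set against each other. Alternatives were library-size, RLE and per-nucleus scaling, no filter, DESeq2 1.42.0, the replicate number as a block, all 6 libraries, Leiden clusters (29) in place of the gate, vehicle CFC libraries only and leaving out each library.

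The members and all lists were chosen with earlier results of these data known. Values per library after conditioning are given for called members whose groups did not overlap. These are up to 6 with the highest and 6 with the lowest log2 fold change in DG granule nuclei and up to 3 and 3 in each other class. At baseline they are given for up to 2 called members per class, and other members are given for their role. Tested on simulated data, the fit of HDACi-CFC against Veh-CFC found 72.6% of genes changed 2-fold and 97.3% of those changed 4-fold in DG granule nuclei (13968 genes), and 34.1% and 92% in OPCs (7040 genes). Only 84 and 110 genes were changed there in DG granule nuclei and 91 and 87 in OPCs, in both directions. Each gene had the spread typical of its level. Far more genes were called in the real fits, so these rates need not hold for them. With 2 libraries per group an exact permutation test of a single value cannot go below p = 0.333, so none was used. Gene positions came from GENCODE, which matched 30934 of the IDs, and promoters from RefSeq (GRCm38.p6).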

Additional observations from a re-analysis of the deposited data

Results flagged for a closer look

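In these pairs of classes the drug effect of a member had opposite signs in DG granule nuclei and in the other class, and the difference itself passed the threshold in the joint edgeR fit. Differences are log2, DG granule minus the other class. Those above 0 were of Kdm2b against CA1 (0.36), CA3 (0.46), astrocytes (1.25) and oligodendrocytes (0.83), of Setd2 against CA3 (0.50) and oligodendrocytes (0.56), and of Prdm2 against astrocytes (1.27), oligodendrocytes (0.96) and microglia (1.22). Kdm1a differed from astrocytes by 1.09, Kdm7a from OPCs by 1.94 and Kdm3a from microglia by 1.30. Those below 0 were of Kdm4b against CA1 (-0.60), CA3 (-0.62) and oligodendrocytes (-1.24), of Kmt2c and Ezh2 against CA3 (-0.65 and -1.35), of Kdm3b against interneurons (-0.63) and OPCs (-1.08), and of Kdm4a and Setd1b against oligodendrocytes (-0.80 and -0.94). In Kdm7a against OPCs, Kmt2c against CA3 and Kdm4b against oligodendrocytes the effect was called in both classes, in opposite directions, but one of the 2 calls was lost with library-size scaling in each: Kdm7a in DG granule (adjusted p = 0.368), Kmt2c in CA3 (0.67) and Kdm4b in oligodendrocytes (0.411). The call of Kdm7a in OPCs was also lost in DESeq2 (adjusted p = 0.138).

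The opposite signs rest on TMM scaling in 11 of the 21 pairs, where both effects were below 0 with library-size scaling. There Kdm2b and Setd2 stood at -0.20 and -0.11 in DG granule, Kdm3a at -0.23 in DG granule, Kdm4b at -0.18 in CA1 and -0.090 in CA3, Ezh2 at -0.22 in CA3 and Kdm3b at -0.20 in interneurons. Per nucleus the signs were opposite in 4 of the 21, those of Prdm2 and of Kdm4b against oligodendrocytes. The difference itself was not called with library-size scaling for Kdm2b against CA1, CA3 and astrocytes, Setd2 against CA3, Kdm1a against astrocytes and Setd1b against oligodendrocytes (edgeR adjusted p = 0.0507 to 0.177).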

How the results depend on the processing

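Of 71 calls of named genes after conditioning, 71 kept the call with RLE scaling and with the replicate block, 70 with all 6 libraries, without the filter or with Leiden clusters, 62 with library-size scaling, 53 of 68 in DESeq2, 44 per nucleus, and between 53 and 65 with 1 library left out. Deviations of same-numbered libraries from their group means had correlations from -0.0685 to 0.176 across the classes. With 2 libraries per group this cannot settle whether the replicate numbers pair the libraries. With the replicate block 15 members rose and 15 fell in DG granule nuclei.

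In DG granule nuclei library-size scaling and the per-nucleus fit gave 8 and 3 rises and 24 and 24 falls. Of all 14316 genes tested, 1389 and 674 rose and 6411 and 6926 fell. Both scalings turned the sign of Kmt2a (-0.047 and -0.20), Kmt2d (-0.014 and -0.16) and Setd2 (-0.11 and -0.26), and per nucleus that of Kdm1a (-0.016), Kdm7a (-0.063), Kmt5a (-0.0039) and Setd7 (-0.10) turned, and these values were not called. Rises and falls with library-size scaling were 5 and 22 in CA1, 5 and 17 in CA3, 4 and 11 in interneurons, 3 and 10 in astrocytes and 5 and 15 in oligodendrocytes, with 10 falls in OPCs. Per nucleus there were 0 rises in CA1, CA3, interneurons and astrocytes, 2 in oligodendrocytes, 3 in OPCs and 1 in microglia. Falls per nucleus were 18, 13, 14 and 12 in CA1, CA3, oligodendrocytes and OPCs. Of all genes tested, 315 of 13521 rose per nucleus in CA1, 175 of 12495 in CA3, 130 of 11436 in interneurons and 195 of 8413 in astrocytes. In oligodendrocytes it was 425 of 10116, in OPCs 345 of 7612 and in microglia 362 of 7157. All genes that fell per nucleus numbered 4720 in CA1, 3288 in CA3, 3771 in oligodendrocytes and 2329 in OPCs. DESeq2 gave 5 falls in CA1, 4 in CA3, 2 in interneurons, 1 in astrocytes (with 3 rises), 5 in oligodendrocytes, 0 in OPCs and 3 in microglia, and all 6 libraries gave 13 falls in CA3. Shares of all genes were not computed for DESeq2 or for all 6 libraries.

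In Context, members past 1.5-fold higher and lower with library-size scaling were 1 and 19 in DG granule, 0 and 13 in interneurons, 2 and 8 in astrocytes and 2 and 18 in oligodendrocytes, with 1 higher in CA1 and 0 in CA3. Per nucleus they were 1 and 19 in DG granule, 1 and 15 in CA1, 0 and 12 in interneurons and 2 and 18 in oligodendrocytes, with 1 higher in CA3. With library-size scaling 3 members responded differently in DG granule and CA1 (12.4% of all genes), and 7 in DG granule and CA3 (12.5%). At baseline library-size scaling gave 7 higher and 10 lower in DG granule, 22 lower in CA1, 3 higher in interneurons, 7 higher in OPCs and 5 lower in microglia. Leiden clusters gave 4 higher in interneurons and 5 lower in oligodendrocytes, and the Veh-CFC libraries alone 2 higher in interneurons. The cause of these shifts was not tested, and shares of all genes were not computed for these alternatives in Context or at baseline.

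With 1 library left out, rises and falls ranged from 10 to 15 and 8 to 14 in DG granule, 9 to 11 and 8 to 9 in CA1, 6 to 9 and 4 to 6 in CA3, 6 to 7 and 2 to 4 in interneurons, 2 to 5 and 2 to 7 in astrocytes, 6 to 7 and 7 to 10 in oligodendrocytes, 5 to 6 and 2 to 4 in OPCs and 2 to 3 and 7 to 9 in microglia. At baseline, members higher and lower ranged from 9 to 11 and 2 to 6 in DG granule, 8 to 12 and 7 to 9 in CA1, 9 to 13 and 12 to 13 in CA3, 1 to 2 and 14 to 18 in interneurons, 3 to 10 and 6 to 7 in astrocytes, 12 to 13 and 5 to 8 in oligodendrocytes, 2 to 4 and 3 to 7 in OPCs and 11 to 15 and 6 to 8 in microglia. On simulated data with few changed genes the drug test in OPCs recovered 34.1% of 2-fold and 92% of 4-fold changes.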
